A study of Mus musculus with 4 samples.

Results

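The genes described here are 6 connexins, Gjb2, Gjb6, Gja1, Gja4, Gja5 and Gjc1, taken by their symbols from the 27998 genes of single-cell RNA profiles of embryonic mouse salivary glands. They were read in all 4 libraries and in epithelial, mesenchymal and endothelial cells. The files list 14 further connexin genes, which are given more briefly.

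All 4 groups are tissues of ICR mouse embryos at embryonic day 12, the epithelium and the mesenchyme of the parotid gland and those of the submandibular gland. About 10 glands of each kind were pooled, the epithelium was parted from the mesenchyme with Dispase II, and each tissue gave 1 library on the droplet platform of 10x Genomics. No group was treated or carried an engineered allele. With 1 library per group there is no test between groups, and every interval below is a 95% interval for counting error alone, which leaves out differences between embryos, litters and dissections. The libraries held 1996 to 4971 cell barcodes and between 14004908 and 39621166 UMIs (unique molecular identifiers, which count captured transcripts). Parotid epithelium had the fewest UMIs in total. Between 10 and 34 barcodes were shared by each pair of libraries, and none of the 53 values recomputed without them left its counting interval.

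Cells were grouped within each library without the connexin genes and named from marker genes. In the epithelium libraries, 1753 parotid and 3609 submandibular cells were epithelial-like, and all 8 epithelial markers reached 10 CPM (UMIs summed over a class and scaled to the same total in every class) in both. In the mesenchyme libraries, 3910 parotid and 4225 submandibular cells were mesenchymal-like, with all 10 mesenchymal markers at that level. Endothelial-like cells numbered 63 and 139, with all 8 endothelial markers at that level, among them Cdh5, the cadherin of endothelial junctions, at 621 and 673 CPM. Each UMI marks the end of 1 transcript whatever its length, so CPM were compared between genes without a division by length.

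Connexins are membrane proteins that assemble in rings to form hemichannels, each of which docks with a partner in the neighbouring cell. The resulting gap junction lets ions and small metabolites pass between cells, and which connexins a cell makes sets which neighbours it can couple to and what passes. Epithelial connexins such as those of Gjb2 and Gjb6 are best known from the inner ear and the skin, where mutations cause deafness and skin disease, and Gja4 and Gja5 are known from arterial endothelium.

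Gjb2 and Gjb6 lie on the same strand of chromosome 14, with start sites 28.909 kb apart, and Gja4 and Gja5 lie on different chromosomes. Since the first pair was found in the same epithelial cells and the second pair in the same endothelial cells, the 250 bases before the start site of each are shown, 5′ to 3′ on the strand of the gene, from RefSeq (GRCm38.p6). For Gja5 the start in that table lies inside the longer gene span of the annotation given further on, so its window is not upstream of that span. Capitals mark the GC box GGGCGG or its reverse complement, a motif of many housekeeping promoters that 32.7% of 32851 promoter windows of the same length hold on either strand.
Gjb2, chr14:57104703-57104952, minus strand: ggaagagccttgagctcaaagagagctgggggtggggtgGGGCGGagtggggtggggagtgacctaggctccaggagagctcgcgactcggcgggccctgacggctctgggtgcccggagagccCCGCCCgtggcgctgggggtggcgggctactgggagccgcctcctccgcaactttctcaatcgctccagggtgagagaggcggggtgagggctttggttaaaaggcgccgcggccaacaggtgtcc
Gjb6, chr14:57133612-57133861, minus strand: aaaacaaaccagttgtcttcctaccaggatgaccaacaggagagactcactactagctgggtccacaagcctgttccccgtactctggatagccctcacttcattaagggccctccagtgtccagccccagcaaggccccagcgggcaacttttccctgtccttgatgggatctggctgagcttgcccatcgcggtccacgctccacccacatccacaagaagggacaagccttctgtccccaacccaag
Gja4, chr4:127314040-127314289, minus strand: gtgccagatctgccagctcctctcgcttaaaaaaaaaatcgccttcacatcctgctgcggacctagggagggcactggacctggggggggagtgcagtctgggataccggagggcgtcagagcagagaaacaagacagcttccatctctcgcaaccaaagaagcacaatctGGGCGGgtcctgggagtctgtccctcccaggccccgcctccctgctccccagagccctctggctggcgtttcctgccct
Gja5, chr3:97032152-97032401, plus strand: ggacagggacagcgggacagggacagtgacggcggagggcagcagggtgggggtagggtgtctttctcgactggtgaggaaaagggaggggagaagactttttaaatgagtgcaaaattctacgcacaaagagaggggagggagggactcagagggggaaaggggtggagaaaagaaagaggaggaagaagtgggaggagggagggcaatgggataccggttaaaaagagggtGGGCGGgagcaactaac
The Gjb2 window held 2 GC boxes and 18 CpG dinucleotides, as many as or more than which are found in 21.7% of all windows. The Gjb6 window held none of the motifs searched and 5 CpG dinucleotides, a number that 55.6% of windows reach. The windows of Gja4 and Gja5 held 1 GC box each. Other motifs were searched on both strands. The TATA box (TATAAA) was found in 12.4% of all windows, the AP-1 site (TGANTCA) in 6.75% and the ETS core (CCGGAA) in 12%. Of these the Gja1 window held 1 AP-1 site, and the 4 windows printed held none. Of the 6 connexins, 5 had an entry in the table, and Gjc1 did not.

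Gjb2 was the most abundant connexin of parotid epithelium and a minor one of submandibular epithelium. Its level was 278 CPM (interval 269 to 287) in parotid epithelial-like cells and 12.8 CPM (11.7 to 14.0) in submandibular ones. It was not found in the 3910 parotid mesenchymal-like cells, and the 4225 submandibular mesenchymal-like cells held 5 UMIs in all, 0.206 CPM. In endothelial-like cells a single UMI was found in parotid and none in submandibular. The intervals of the 2 epithelia lay far apart, with the parotid level 21.7 times the submandibular one (19.8 to 23.9). Gjb2 lies at chr14:57098600-57104702 on the minus strand (GRCm38).

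Gjb6, whose product can share channels with that of Gjb2, showed the same order at lower levels. It stood at 86.2 CPM (81.3 to 91.3) in parotid and 2.17 CPM (1.73 to 2.69) in submandibular epithelial-like cells, a ratio of 39.7 (31.8 to 50.2). Parotid mesenchymal-like cells held no UMI of it, submandibular ones 9, and endothelial-like cells of both glands none. Gjb6 lies at chr14:57123303-57133611 on the minus strand.

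Among the 3017 genes that reached 50 CPM in the higher of the 2 epithelia, 2.82% were at least 2-fold higher in parotid and 2.09% at least 2-fold higher in submandibular epithelium. The balance of these, 63 genes higher in submandibular and 85 in parotid, turned to 72 and 66 with TMM factors and 71 and 68 with DESeq2 size factors. Of the 3 connexins that reached 50 CPM there, Gjb2 and Gjb6 were 2-fold or more higher in parotid and none was in submandibular epithelium. Gjb2 alone made up 57.5% (56.3 to 58.7) of all connexin UMIs of parotid epithelial-like cells and 11% (10.1 to 11.95) of those of submandibular ones. Connexin UMIs together came to 484 CPM in the parotid and 117 CPM in the submandibular epithelium.

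The share of cells with a UMI followed the levels. After every cell was thinned to 3000 UMIs, which left out 81 parotid and 13 submandibular cells, 34.9% (32.6 to 37.2) of parotid and 4.12% (3.49 to 4.82) of submandibular epithelial-like cells had a Gjb2 UMI. For Gjb6 the shares were 18.1% (16.2 to 20.0) and 0.945% (0.656 to 1.32). Without thinning they were 47.1% and 8.65% for Gjb2, and 29.3% and 2.16% for Gjb6, at median depths of 7094 and 9833 UMIs per cell. In the parotid mesenchyme library, 0 of 3910 mesenchymal-like cells had a Gjb2 UMI (3 counts of that total would be 0.0767%, and the exact interval reaches 0.0943%) at a median depth of 5561.5 UMIs. The same library held 120 epithelial-like cells, of which 34.2% had one, at 120 CPM (100 to 143). Gjb6 stood at 28.2 CPM (19.0 to 40.2) in those 120 cells, so both genes were found in parotid epithelial-like cells of a second library. No class that should lack the genes was named in the parotid epithelium library itself.

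**Figure D1:**
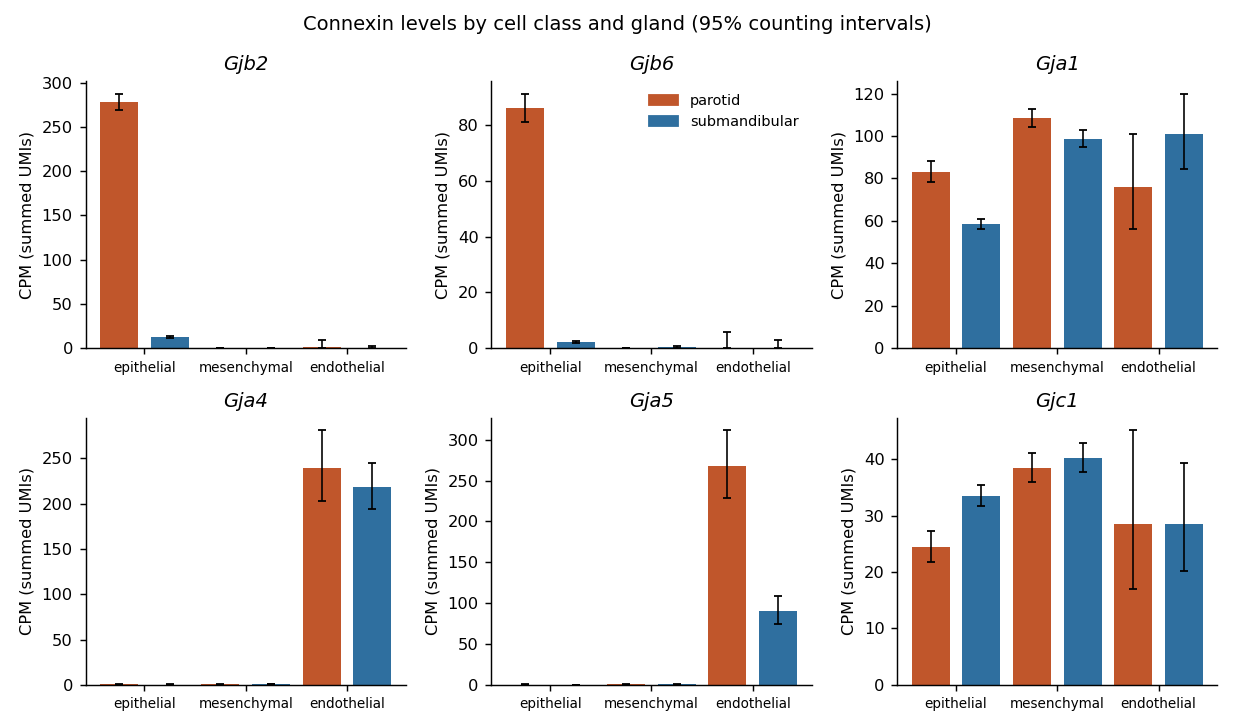
Level of each connexin in CPM in epithelial-like, mesenchymal-like and endothelial-like cells of the parotid and the submandibular gland. Bars are single libraries, lines are 95% counting intervals and each panel has its own axis from 0. Gjb2 and Gjb6 stand high in parotid epithelium (278 and 86.2 CPM), Gja4 and Gja5 in endothelial-like cells of both glands, and Gja1 and Gjc1 in every class shown.

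Against mesenchyme, both genes marked the epithelium. In parotid, 6.4% of the 3282 genes tested were at least 2-fold higher in epithelial-like cells and 9.29% in mesenchymal-like cells, and 2 of 3 connexins tested, Gjb2 and Gjb6, were among the former and none among the latter. Gjb2 was at least 1786-fold and Gjb6 at least 552-fold higher, these being the lower limits against no UMI in the mesenchyme. When each cell was instead classed by its own markers, the ratios were 201 for Gjb2 and 395 for Gjb6, so the limits hold for the cluster classes alone. In submandibular tissue Gjb2 was 62.3-fold (26.5 to 193) and Gjb6 5.87-fold (2.95 to 13.3) higher in epithelium, but neither reached 50 CPM. Only Gja1 of the 6 did, and it passed in neither direction, beside 9.4% of 3458 genes higher in epithelium and 13.2% higher in mesenchyme. In that comparison 41.7% of the genes that passed were higher in epithelium with CPM, and 60.3% with TMM factors, which shift all log2 ratios by 0.23.

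Gjb2 differed widely between parotid epithelial clusters. Over the 11 clusters it ranged from 29.6 to 1246 CPM with a median of 178. Leaving the connexins themselves aside, it was highest in a cluster of 183 cells led by Hotairm1, Skap2, Cxcl14 and Chst2 (1246 CPM, 1178 to 1316) and in one of 67 cells led by Lmo1, Skap2, Phlda2 and Irx4 (993 CPM, 919 to 1071). Gjb6 was highest in those same clusters, at 384 and 372 CPM. They had median depths of 5601 and 9924 UMIs per cell, beside 7094 over all parotid epithelial-like cells. The high level was thus found in clusters on both sides of that median, and cells were not split by depth. Both held much Cxcl14, which encodes a chemokine of epithelia (3406 and 2996 CPM), but so did 2 clusters with less Gjb2, at 2871 and 2658 CPM of Cxcl14 beside 174 and 50.4 CPM of Gjb2.

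The 3 lowest parotid levels of Gjb2 lay between 29.6 and 53.5 CPM. Clusters led by Igfbp3, Fam150b, Ngfr and Lmcd1, of 131 and 243 cells, held 29.6 and 53.5 CPM of Gjb2 and 7.05 and 11.47 CPM of Gjb6. A cluster led by Lhx2, Nrp2 and Krt17 lay between them at 50.4 CPM of Gjb2. The Igfbp3 clusters held 75.4 and 92.9 CPM of Sox10, a transcription factor of the distal end of salivary buds, against at most 3.39 CPM in the other 9. A cluster of 124 cells led by Lum and Col3a1, genes of mesenchyme, still held 283 CPM of Gjb2, with 51.4 CPM of Col3a1.

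In submandibular epithelium Gjb2 ranged over 10 clusters from 0.744 to 59.6 CPM, with a median of 4.42. The highest was a cluster of 658 cells led by Krt15, Igfbp5, Wnt6 and Cyp26a1 (59.6 CPM, 52.3 to 67.6), which also held the most Gjb6 (11.2 CPM, 8.15 to 14.9). Next came a cycling cluster led by Nusap1, Lockd and Ube2c (34.2 CPM) and one led by Cyr61, Fas and Sostdc1 (21.4 CPM). The clusters of the 2 glands overlapped: 3 parotid clusters, at 29.6, 50.4 and 53.5 CPM, lay below the highest submandibular one. Across clusters of 1 library, Gjb2 and Gjb6 moved together, with Pearson's r of log2(CPM + 10) at 0.94 over 11 parotid and 0.90 over 10 submandibular clusters. Spearman's rho was 0.88 and 0.55. Clusters share a library and are not replicates, so these values describe the cells only.

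**Figure D2:**
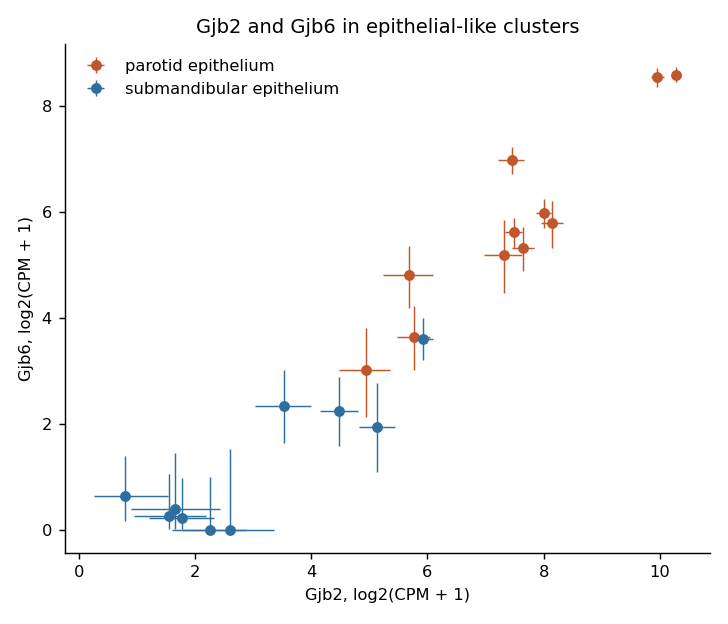
Gjb6 against Gjb2 in each epithelial-like cluster, both as log2(CPM + 1), with 95% counting intervals; the 11 clusters of parotid epithelium and the 10 of submandibular epithelium are in separate colours. The 2 parotid clusters at the upper right hold 1246 and 993 CPM of Gjb2, and the lowest parotid clusters overlap the highest submandibular one in Gjb2.

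Because Sox10 cells made up different shares of the epithelia, the comparison was repeated within cells with and without a Sox10 UMI. Of the epithelial-like cells 192 parotid and 904 submandibular ones had such a UMI. In them Gjb2 stood at 43.1 CPM in parotid and 2.85 CPM in submandibular, a ratio of 15.1 (10.1 to 23.0). Gjb6 stood at 13.1 and 0.308 CPM, a ratio of 42.6 (14.6 to 169) that rests on 4 submandibular UMIs. In the 1561 and 2705 cells without a Sox10 UMI, Gjb2 stood at 316 and 18.0 CPM (17.6-fold, 16.0 to 19.5) and Gjb6 at 97.97 and 3.13 CPM (31.3-fold, 24.9 to 39.8). The gland difference was thus present in cells with and in cells without a Sox10 UMI. Many cells without such a UMI belong to clusters that hold Sox10, so the split does not part kinds of cell. It cannot say whether the make-up of the epithelia accounts for the difference. Within a gland, cells without a Sox10 UMI held 7.34 times (5.87 to 9.29) the Gjb2 of cells with one in parotid. In submandibular epithelium they held 6.31 times (4.51 to 9.08).

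The 2 genes were found in the same cells more often than their separate shares give. Of 1672 parotid epithelial-like cells thinned to 3000 UMIs, 215 had both, 368 Gjb2 alone and 87 Gjb6 alone. Independent shares would give 105.3 cells with both, or 172.0 when the shares are taken within each cluster. Of the cells with a Gjb6 UMI, 71.2% (65.7 to 76.2) had Gjb2, against 26.9% (24.5 to 29.3) of the cells without one. In submandibular epithelium 10 of 3596 cells had both, where independent shares give 1.40, or 3.83 within clusters. These shares depend on depth, and at 1500 UMIs per cell the parotid share was 55.9%. Gjb2 and Gja1 met in 108 parotid cells at 3000 UMIs, beside 118.9 from independent shares within clusters. At 1500 UMIs they met in 56, beside 50.9. In submandibular epithelium 44 cells had both at 3000 UMIs, where independent shares give 25.6, or 37.0 within clusters.

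The other genes around Gjb2 and Gjb6 differed less between the epithelia. Gja3, a lens connexin gene whose start lies 46.6 kb downstream of that of Gjb2, stood at 0.151 and 0.157 CPM in parotid and submandibular epithelium. These levels came from 2 and 6 UMIs, a ratio of 0.965 (0.0952 to 5.39). Gm4491, between Gjb2 and Gjb6, had no UMI in either. Upstream, Cryl1 stood at 21.3 and 11.7 CPM (1.82-fold higher in parotid, 1.56 to 2.12) and Ift88, a gene of cilium assembly, at 15.8 and 10.1 CPM (1.56-fold, 1.31 to 1.85). Downstream, Zmym2, Zmym5 and Pspc1 had parotid over submandibular ratios of 1.12 (0.982 to 1.29), 1.25 (1.13 to 1.39) and 1.01 (0.929 to 1.10). The ratios of the neighbours thus lay between 0.965 and 1.82, the wide interval of Gja3 aside, and those of Gjb2 and Gjb6 were 21.7 and 39.7. No pair of the 6 connexins shared a stretch of 60 bases in its transcripts.

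**Figure D3:**
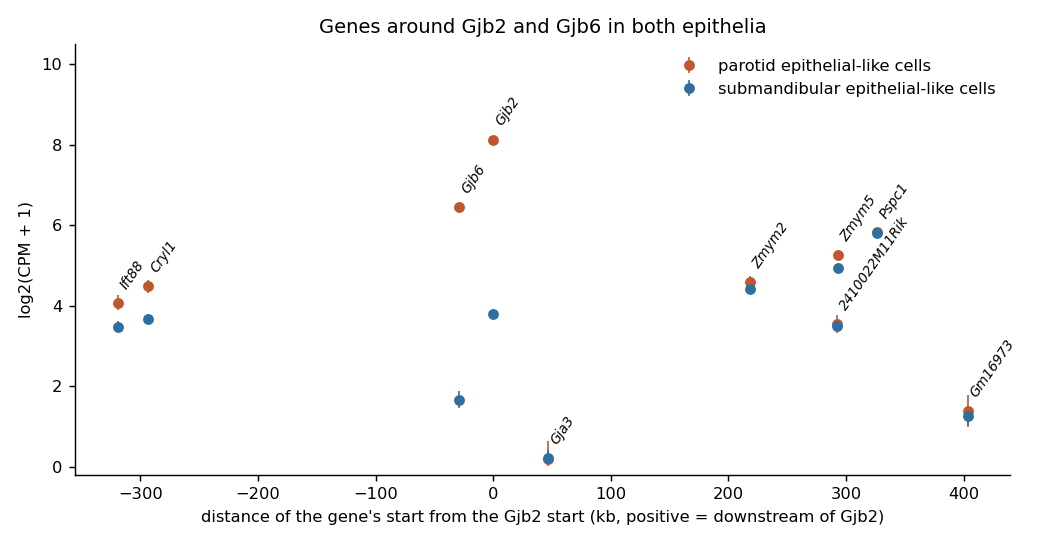
Level in epithelial-like cells, as log2(CPM + 1) with 95% counting intervals, of the genes around Gjb2 that had a UMI, against the distance of each gene's start from that of Gjb2 in kb. Parotid and submandibular points part widely at Gjb2 and Gjb6 and lie within 1.82-fold at the other genes. The Gja3 points rest on 2 and 6 UMIs, and the interval of their ratio runs from 0.0952 to 5.39.

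Gja1, the most widely made connexin of mammalian tissues, was present in every main class. It stood at 83.2 CPM (78.4 to 88.3) in parotid and 58.4 CPM (56.0 to 60.9) in submandibular epithelium. In mesenchyme it stood at 108 CPM (104 to 113) and 98.8 CPM (94.9 to 103), and in endothelial-like cells at 76.1 CPM (56.1 to 101) and 101 CPM (84.5 to 120). The endothelial intervals overlapped each other and those of the submandibular mesenchyme. Within its own library the parotid endothelial level was 0.702 (0.516 to 0.933) of the mesenchymal one, and 0.778 (0.572 to 1.04) with DESeq2 size factors. In submandibular that ratio was 1.02 (0.851 to 1.22). Erythroid cells of the same mesenchyme libraries, which should lack it, held 1.70 and 6.60 CPM at median depths of 16904 and 17195 UMIs per cell.

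Gja1 was 1.43-fold (1.32 to 1.53) higher in parotid than in submandibular epithelium and 1.10-fold (1.04 to 1.16) higher in parotid than in submandibular mesenchyme. Neither difference passed the 2-fold rule. In the mesenchyme 3.58% of 3267 genes were at least 2-fold higher in parotid and 3.98% in submandibular, Gja1 being the 1 connexin tested there. Of the genes that passed, 52.6% were higher in submandibular mesenchyme with CPM and 42.6% with DESeq2 size factors. Epithelium held less Gja1 than mesenchyme in both glands, at 0.768 (0.715 to 0.824) of the mesenchymal level in parotid and 0.591 (0.558 to 0.626) in submandibular. Since Gjb2 was low in the submandibular epithelium, Gja1 made up 50.1% (48.6 to 51.6) of its connexin UMIs and 17.2% (16.3 to 18.2) of those of the parotid epithelium. In mesenchyme its share was 73.2% (71.7 to 74.6) in parotid and 69.6% (68.0 to 71.1) in submandibular.

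Between clusters Gja1 varied more than between glands. In parotid epithelium it ranged from 40.5 CPM in a cluster led by Rprm, Fas and Timp3 to 328 CPM (280 to 382) in a cluster of 78 cells led by Gabrp, Slc2a3 and Cldn3. That cluster also had the highest level of Jun, an immediate early gene, among the 11 (1792 CPM against 259 to 1140 in the others), and the part of this in its Gja1 level was not tested. In submandibular epithelium Gja1 ranged from 22.4 CPM (17.3 to 28.5), in a cluster with Krt19 and Krt6a among its leading genes, to 139 CPM (125 to 155), in the cycling cluster led by Nusap1. Cells without a Sox10 UMI held 1.45 times (1.19 to 1.78) the Gja1 of cells with it in parotid and 1.73 times (1.57 to 1.92) in submandibular epithelium. In mesenchyme its clusters ran from 55.9 to 175 CPM in parotid and from 52.8 to 139.5 CPM in submandibular. The parotid ones above 165 CPM were led by Gsc and Twist2, by Irx1 and Hpgd, and by Pax9 and Ntrk2.

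Gjc1, a connexin of the early embryo, the heart and vessel walls, was found in all main classes at lower levels than Gja1. It stood at 24.4 CPM (21.8 to 27.3) in parotid and 33.5 CPM (31.7 to 35.4) in submandibular epithelium. In mesenchyme it stood at 38.4 CPM (36.0 to 41.0) and 40.2 CPM (37.7 to 42.8), and in endothelial-like cells at 28.5 CPM in both glands (16.9 to 45.1 and 20.1 to 39.3). It was the 1 member higher in submandibular than in parotid epithelium beyond its counting interval, by 1.37-fold (1.21 to 1.55). In cells with a Sox10 UMI that ratio was 0.992 (0.754 to 1.33), at 32.2 CPM in parotid and 31.9 CPM in submandibular cells. The mesenchymal levels did not differ beyond counting error (1.05-fold, 0.955 to 1.15).

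Gjc1 was lower in epithelium than in mesenchyme, at 0.636 (0.559 to 0.723) of the mesenchymal level in parotid and 0.833 (0.766 to 0.906) in submandibular. With TMM factors the submandibular value was 0.976 (0.898 to 1.06), so that difference depends on the scaling. Among the mesenchymal clusters Gjc1 was highest where genes of DNA synthesis and mitosis were high. In parotid these were a cluster of 96 cells led by Gsc and Twist2 (71.0 CPM), one led by Tk1 and Top2a (52.6 CPM) and one led by Cdc20 and Ccnb1 (51.5 CPM), while the other 8 lay between 24.5 and 36.1 CPM. In submandibular mesenchyme the highest were led by Ccne2 and Tk1 (77.1 CPM) and by Nusap1 and Top2a (49.1 CPM). The lowest level there, 23.5 CPM, was in a cluster of 197 cells whose mitosis (G2M) genes summed to 651 CPM. In the highest cluster these genes summed to 676 CPM, so Gjc1 did not follow the mitosis genes throughout. The genes of DNA synthesis (S) summed to 432 CPM in the lowest cluster and 2272 CPM in the highest. Pearson's r of Gjc1 with the summed S and G2M genes, on log2(CPM + 10), was 0.92 over 11 parotid and 0.65 over 9 submandibular mesenchymal clusters. It was 0.65 over 11 parotid and 0.40 over 10 submandibular epithelial clusters. Spearman's rho was 0.85 and 0.57 in the mesenchymes and 0.67 and 0.28 in the epithelia, parotid first.

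**Figure D4:**
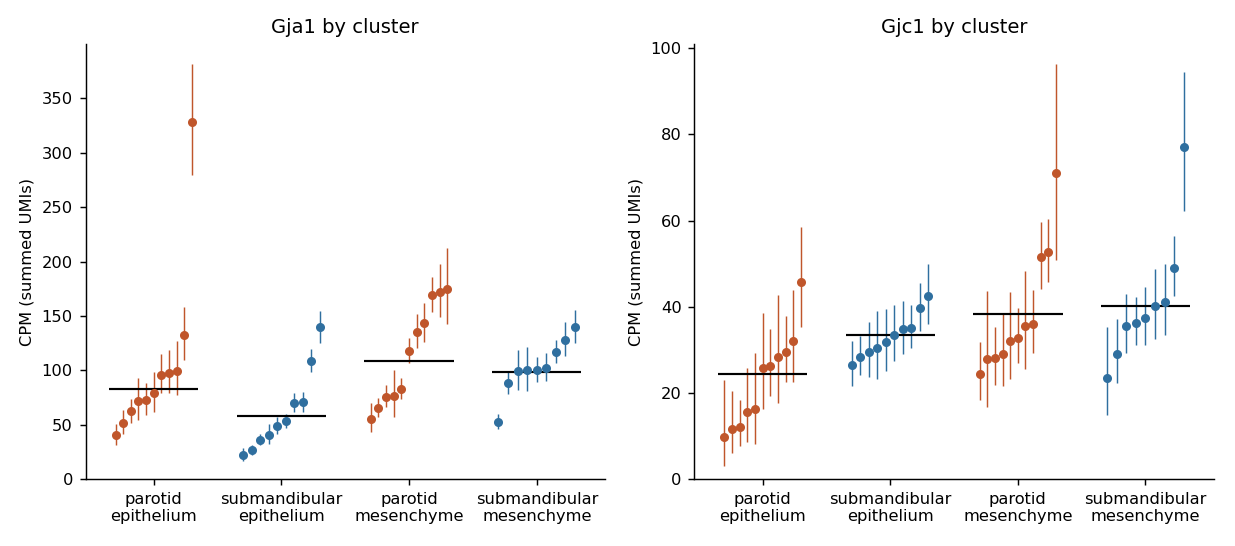
Gja1 (left) and Gjc1 (right) in CPM for each cluster of at least 30 cells in the 4 main classes, with 95% counting intervals, sorted by level within a class; black lines are the level over the whole class. Gja1 in 1 parotid epithelial cluster (328 CPM) lies apart from the others, and Gjc1 rises to 71.0 and 77.1 CPM in 1 cluster of each mesenchyme.

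Gja4 and Gja5, both known from arterial endothelium, were high in endothelial-like cells and close to absent from epithelial-like and mesenchymal-like ones. Gja4 stood at 239 CPM (203 to 281) in parotid and 218 CPM (194 to 245) in submandibular endothelial-like cells, and at 0.235 to 0.740 CPM in the epithelial-like and mesenchymal-like cells of both glands. Gja5 stood at 268 CPM (229 to 311) and 90.3 CPM (74.7 to 108) in endothelial-like cells, and at 0.026 to 0.633 CPM in the other 4. Endothelial-like and mesenchymal-like cells of a gland came from the same library, at median depths of 8147 and 5561.5 UMIs per cell in parotid and 7866 and 5270 in submandibular. In parotid Gja4 was 472-fold (263 to 934) and Gja5 423-fold (249.2 to 772) higher in endothelial-like than in mesenchymal-like cells, and in submandibular 295-fold (183 to 505) and 169-fold (95.0 to 327). When cells needed 1000 genes and a mitochondrial share of 5% or less, the parotid ratios fell to 51.0 for Gja4 and 8.12 for Gja5. No Gja5 UMI was left in those endothelial-like cells, and 4.75 CPM was used in its place. That is 3 UMIs over the UMI total of all 63 cells, not of the cells left, so 8.12 is not a measured ratio.

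These were the 2 of 3 connexins tested that passed the 2-fold rule upwards in each gland, and none passed downwards. Under that stricter filter 0 passed upwards in parotid and 1, Gja1, passed downwards. Gja4 was still 51.0-fold higher there, but it did not reach the 50 CPM that the rule also asks for. Beside them 13.1% of 3457 genes were higher in endothelial-like and 15% in mesenchymal-like cells in parotid, and 12% and 14.3% of 3542 genes in submandibular. In the submandibular comparison 45.6% of the genes that passed were higher in endothelial-like cells with CPM, 57.0% with TMM factors and 60.7% with DESeq2 size factors. Gja4 made up 38.8% (33.9 to 43.9) and Gja5 43.4% (38.5 to 48.5) of connexin UMIs in parotid endothelial-like cells, and 49.6% (45.4 to 53.7) and 20.5% (17.3 to 24.0) in submandibular ones. Gja4 lies at chr4:127311421-127314039 on the minus strand and Gja5 at chr3:96904693-97077416 on the plus strand. On the other strand Gja5 overlaps 4 genes, and the strand setting of the counting is not given in the sources used here.

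Gja4 did not differ between the glands in these cells beyond counting error (1.10 times higher in parotid, 0.894 to 1.34), while Gja5 was 2.97-fold (2.33 to 3.79) higher in parotid. Of 3019 genes tested, 1.26% were at least 2-fold higher in parotid and 1.46% in submandibular endothelial-like cells, and Gja5 was the 1 of 3 connexins that passed, in parotid. The value rests on 12 parotid and 17 submandibular cells with a Gja5 UMI. All 12 parotid cells had a mitochondrial share above 5% (5.16 to 9.99%, median 6.98%). So had 12 of the 17 submandibular cells with Gja5. Of the cells without Gja5, 24 of 51 in parotid and 87 of 122 in submandibular lay above 5% too. A limit of 5% with at least 1000 genes thus took out many endothelial-like cells of both glands. It left no parotid UMI of Gja5, and the difference then pointed the other way. Under that limit Gja4 was 9.92 times higher in submandibular cells. The erythroid markers summed to 18162 CPM in the parotid and 846 CPM in the submandibular endothelial-like cells, with 7 and 6 of 8 markers at 10 CPM or more and 0 and 2 at 0, and their part in the Gja5 difference was not tested.

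Gja5 was confined to fewer endothelial-like cells than Gja4. Without thinning, 12 of 63 parotid and 17 of 139 submandibular cells had a Gja5 UMI, and 22 and 40 had a Gja4 UMI. Of the cells with Gja5, 11 of 12 in parotid and 17 of 17 in submandibular also had Gja4. Cells with a Gja5 UMI held 1067 and 1584 CPM of Gja4, and cells without one 52.5 and 51.9 CPM, which is 20.3-fold (13.3 to 32.1) and 30.5-fold (22.8 to 41.3). Gja1 differed less, at 112 against 68.0 CPM in parotid, where the interval of the ratio held 1 (0.798 to 3.19), and 199 against 89.1 CPM in submandibular (2.23-fold, 1.41 to 3.42).

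Genes of arterial and venous endothelium were then compared between these cells, in lists drawn up once the data were known. The share of all genes that differed beyond the counting interval between these cells was not computed. The counts of genes below therefore stand without a background. Of 8 arterial genes, 7 were higher in the cells with Gja5 beyond the counting interval in each gland, and the eighth, Bmx, had at most 2 UMIs in any group. Hey1, a target of Notch signals in arteries, stood at 275 against 31.1 CPM in parotid (8.86-fold, 4.72 to 17.3) and 476 against 23.4 CPM in submandibular (20.4-fold, 12.8 to 33.1). Cxcr4, the receptor of the chemokine Cxcl12, stood at 120 against 9.71 CPM and 263 against 5.19 CPM. Of 4 venous genes, 3 were lower in the cells with Gja5 in each gland, and Ephb4 was not. Aplnr, the apelin receptor, stood at 17.2 against 445 CPM in parotid and 21.3 against 335 CPM in submandibular. Nr2f2, a transcription factor of veins, stood at 34.4 against 101 CPM and 28.4 against 119 CPM.

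Of 3 lymphatic genes, Ccl21a and Prox1 were found in the endothelial-like cells of submandibular alone, and Lyve1 in those of neither gland. These were 139 submandibular and 63 parotid cells, from 1 library each. In the submandibular cells without Gja5, Ccl21a stood at 2045 CPM and Prox1, the master regulator of lymphatic identity, at 46.7 CPM, and the 17 cells with Gja5 held no UMI of either. None of the 3 lymphatic genes had a UMI in the parotid endothelial-like cells. Cdh5, Pecam1 and Kdr, markers of all endothelium, were higher in the cells with Gja5 too, by 2.07, 2.79 and 1.73 times in parotid and 1.50, 2.67 and 1.41 times in submandibular. Median depths were 9400 and 7600 UMIs in parotid cells with and without Gja5, and 7715 and 7953 in submandibular ones.

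**Figure D5:**
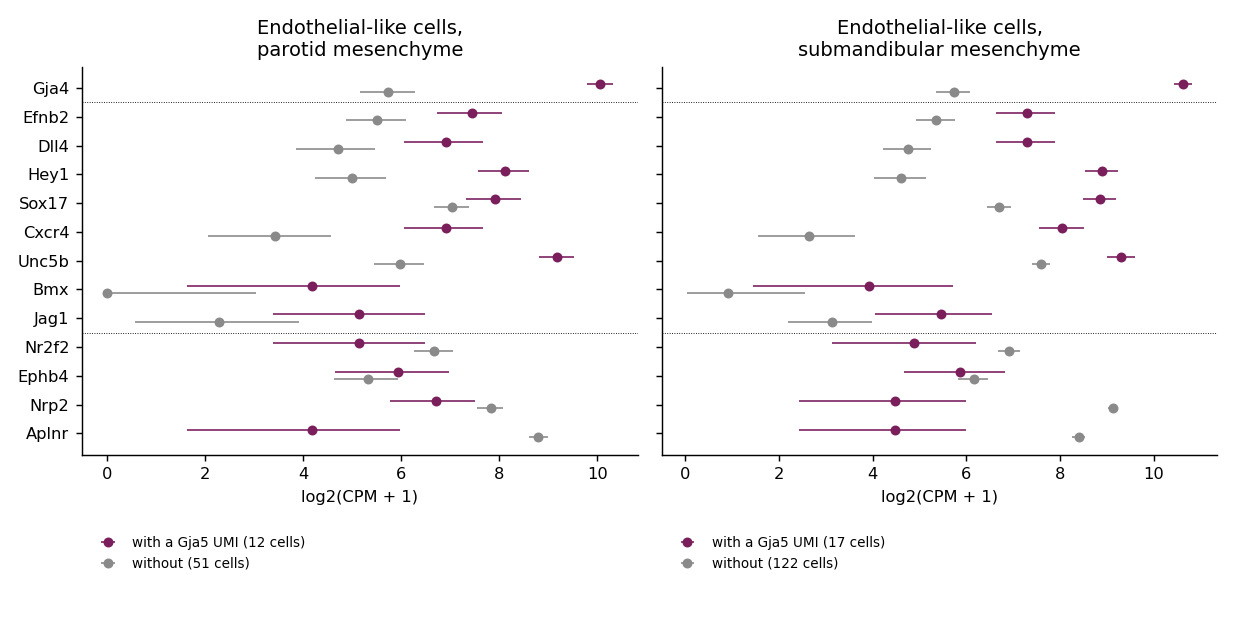
Gja4 (top), 8 arterial genes (middle) and 4 venous genes (bottom) in endothelial-like cells with and without a Gja5 UMI, as log2(CPM + 1) with 95% counting intervals, in the parotid (left) and submandibular (right) mesenchyme library. Cells with Gja5 lie to the right for Gja4 and the arterial genes and to the left for Nr2f2, Nrp2 and Aplnr.

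Gja5 was also found in muscle. Skeletal muscle-like cells numbered 234 in the parotid and 130 in the submandibular mesenchyme library, and held 37.8 CPM (31.7 to 44.7) and 11.1 CPM (6.68 to 17.3) of Gja5. In parotid 135 of the 137 UMIs were in 35 cells with a UMI of Acta1, the actin of differentiated skeletal muscle, where the level was 253 CPM (212 to 300), and the 199 other muscle cells held 0.647 CPM. In 33 Acta1 cells without a Cdh5 UMI the level was 213 CPM (175 to 258), and the 234 parotid muscle cells held no UMI of Gja4. In submandibular muscle all 19 UMIs of Gja5 were in 13 cells with Acta1. Of these 10 were in a single cell that also held all 27 Gja4 UMIs of the class, 15 Cdh5 UMIs and 72 of Myog, a muscle regulator, with 27166 UMIs in total. Without the cells that had a Cdh5 UMI, submandibular muscle held 5.38 CPM (2.46 to 10.2) of Gja5 and no Gja4. Doublets could not be removed well from these data, so cells that hold genes of 2 types may be 2 cells.

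Over all 53 clusters of at least 30 cells, the genes most like each connexin were found among 5522 genes by Pearson's r of log2(CPM + 10). Gjb2 was closest to Wnt7b, Wnt3 and Krt5 (each 0.96), and Gjb6 to Wnt3 (0.96), Rprml and Irx4 (each 0.94). Gja4 was closest to Myct1, Plvap and Cdh5 (each 0.99), genes of endothelial cells, and Gja5 to Tm6sf1 (0.95), Trim47 and Crip2 (each 0.84). Gja1 was closest to Pgrmc1, Tmem59 and Ptpra (each 0.81), and Gjc1 to Dnajc10 (0.85), Cbfb and Rif1 (each 0.82). Among the members Gjb2 and Gjb6 had r of 0.96, Gja4 and Gja5 0.77 and Gja1 and Gjc1 0.51. Clusters share libraries and depth, and these values are descriptions.

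Of the 14 other connexins, 5 reached 1 CPM in a class of at least 50 cells, and 4 had no UMI in any such class. Panx1, of the related pannexin channels, stood at 27.8 and 35.5 CPM in the 2 epithelia and at 22.3 and 16.5 CPM in the mesenchymes.

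The list of 10 connexin partners held scaffold, junction and membrane genes. Between the glands none of the 3 that reached 50 CPM in epithelium and none of the 4 in mesenchyme passed the 2-fold rule, with median log2 ratios (submandibular over parotid) of -0.20 and -0.05 beside 0.04 and -0.02 over all genes tested. Cdh2, the cadherin of mesenchymal and neural cells, was lower in epithelium in both glands, at 5.37 against 50.3 CPM in parotid and 4.89 against 89.2 CPM in submandibular. In endothelial-like cells Tjp1, a scaffold of tight and gap junctions, was higher than in mesenchymal-like cells (60.2 against 10.2 CPM in parotid, 81.0 against 14.96 CPM in submandibular). So was Cav1, the coat protein of caveolae (182 against 6.08 CPM and 267 against 0.699 CPM). Ctnnb1, beta-catenin of the adherens junction, passed in submandibular alone (429 against 207 CPM), beside 372 against 212 CPM in parotid. Cdh2 was lower in endothelial-like cells in both glands, at 17.4 against 50.3 CPM in parotid and 9.26 against 89.2 CPM in submandibular.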

How the data were processed

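Single-cell libraries of 3′ transcript ends were made from 4 tissues, 1 library each. The authors' deposited matrices hold raw UMI counts for each gene in each barcode. The tool and build named in the submitters' processing notes are Cell Ranger 2.1.1 and mm10. The connexins, gene lists and comparisons were chosen with earlier results of these data known.

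Cells needed 500 detected genes or more and a mitochondrial share of 10% or less. Scrublet called 9 of 14884 barcodes doublets (0.0605%), a share so low that the caller cannot have worked; doublets remain in the data, and 14875 barcodes were used. Each library was clustered with scanpy 1.11.5 (Python 3.11.15, igraph 0.11.9, scikit-learn 1.9.0) on 2000 variable genes, 30 components and 15 neighbours at Leiden resolution 0.8, with all connexin genes left out. A cluster was named from 11 marker lists by its levels relative to the highest cluster, with at least 3 markers each in 25% of cells. This scoring was set after the data had been seen, since a first rule misnamed a mesenchymal cluster. Of 58 clusters, 55 were named. Clusters with a median mitochondrial share under 1% stayed unnamed unless erythroid.

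UMI counts were summed per class and library, and CPM were computed from the sums, with exact 95% Poisson intervals. Ratios have exact conditional binomial and shares Clopper-Pearson intervals, all for counting error only. The size rule asked for 50 CPM in the higher sum and a ratio of 2, with 3 UMIs in place of 0. In the alternatives these 3 UMIs were still taken over the UMI total of the class under the main settings. No test was possible with 1 library per group. The 6 connexins are always named. Other connexins and pannexins are named from 10 CPM, of which 1 result is not reported here (Gjc3, below that level, was chosen after its values were seen), partners past the size rule, and the 3 genes most alike by correlation over clusters. Of the genes, 27645 of 27998 were matched by identifier to a GRCm38 annotation, and 1 marker (Cnmd) was found by identifier. Alternatives used other filters, classes, weights, thresholds, edgeR 4.0.16 TMM factors and DESeq2 1.42.0 size factors (R 4.3.3, scipy 1.17.1). The size rule was tested on simulated counts.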

Additional observations from a re-analysis of the deposited data

How the results depend on the processing

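No paired analysis was possible because each group had 1 library. Of the alternative values, 592 stayed within the counting interval or count limit of the value reported, 80 moved further and 1 reversed. With each cell weighing the same, the parotid over submandibular ratio in epithelium was 16.3 for Gjb2 and 29.5 for Gjb6. The split by a Sox10 UMI gave 15.1 and 17.6 for Gjb2, and 31.3 for Gjb6 in cells without a Sox10 UMI. At least 200 CPM left 1 connexin higher in parotid epithelium, both over submandibular epithelium and over parotid mesenchyme, and 1 higher in submandibular endothelial-like cells over mesenchyme. In cells with a Sox10 UMI 0 passed, since neither Gjb2 nor Gjb6 reached 50 CPM there. At least 10 CPM added 1, Gjb2, to submandibular epithelium over mesenchyme. With at most 5% mitochondrial UMIs and 1000 genes, 0 connexins passed the rule above mesenchyme in parotid endothelial-like cells and 1 below. Gja4 stayed 51.0-fold higher there and failed the rule because it did not reach 50 CPM. In the same setting 2 connexins were higher in submandibular than parotid endothelial-like cells and 0 in parotid, and the Gja5 ratio (submandibular over parotid) reversed from 0.337 to 32.5. No parotid UMI was left, so 32.5 is set against 4.75 CPM, which is 3 UMIs over all 63 parotid cells before that filter. Its size is therefore not a measured ratio. The lowest Gjb2 level of a parotid cluster was 11.4 CPM at resolution 1.6 and 20.1 CPM with the stricter filter. The share of Gjb6 cells with Gjb2 was 55.9% at 1500 UMIs and 80.4% without thinning.
Over all genes, the numbers that passed the rule moved by over 1.5 times at other minimum levels. In submandibular against parotid epithelium, with those higher in the first named given first throughout, they were 63 and 85 at 50 CPM, 213 and 298 at 10 CPM, and 10 and 24 at 200 CPM. In the same order of minimum levels they were 130 and 117, 511 and 329, and 28 and 35 for submandibular against parotid mesenchyme. Parotid epithelium against mesenchyme gave 210 and 305, 706 and 958, and 44 and 74, and submandibular epithelium against mesenchyme 325 and 455, 803 and 1680, and 77 and 91. Endothelial-like against mesenchymal-like cells gave 453 and 520, 1146 and 1745, and 120 and 107 in parotid, and 425 and 507, 1078 and 1752, and 108 and 94 in submandibular. Submandibular against parotid endothelial-like cells gave 44 and 38, 623 and 321, and 13 and 11, and 209 and 206 with the stricter filter. In submandibular epithelium over mesenchyme 497 genes passed with TMM and 498 with DESeq2 factors, against 325.
With each cell classed by its own markers, Gjb2 in parotid epithelium over mesenchyme was 201-fold and Gjb6 395-fold. The 63 and 139 endothelial-like cells limit what can be said of vessels, and the cause of these shifts was not tested.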

Other observations

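The epithelium libraries held 2 clusters that stayed unnamed because their mitochondrial share was very low. The parotid one, of 92 cells at a median depth of 2355 UMIs, held 140 CPM of Gjb2, 34.0 CPM of Gjb6, 8.49 CPM of Gja1 and 4.24 CPM of Gjc1. The submandibular one, of 136 cells, held 1.46 CPM of Gjb2 and no Gjb6, with 17.5 CPM each of Gja1 and Gjc1. An unnamed cluster of 146 cells in the submandibular mesenchyme library, with markers of neurons and neural crest, held 85.8 CPM of Gja1, 31.0 CPM of Gjc1 and 8.58 CPM of Gjc3, a connexin gene of glial cells, which had no UMI in the main classes. Chondrogenic-like cells of that library, 56 in number, held 50.8 CPM of Gja1 and 28.2 CPM of Gjc1. The 18 epithelial-like cells of the submandibular mesenchyme library held 19.9 CPM of Gjb2 and 9.95 CPM of Gjb6, from 2 UMIs and 1 UMI.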
